A study of Homo sapiens with 21 samples.

Results

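The genes described here encode collagens, laminins and the glycoproteins that build the extracellular matrix around them, 55 genes in all. The sites analysed were the accessible sites to which the deposited annotation gave 1 of these 55 gene names, that is, the sites whose nearest annotated transcription start site (TSS) belonged to such a gene. Of 367900 sites in the series, 1392 carried a member name, and each of the 55 genes had at least 1. The study asked what happens to open chromatin when ARID1A and ARID1B, subunits of the BAF chromatin remodelling complex, are silenced in SK-N-BE(2), an established neuroblastoma cell line. Lentiviral short hairpin RNAs (shRNAs) were delivered to the cells, which were collected after 72 h, and accessibility was read by ATAC-seq, where a transposase cuts and tags exposed DNA. There were 7 groups of 3 libraries: Control, ARID1A silencing by shARID1A.2 or by shARID1A.4, ARID1B silencing by shARID1B.2 or by shARID1B.3, and silencing of both genes by shARID1A/B.2.3 or by shARID1A/B.4.2. All 21 libraries came from this single line, so they speak for that line. Accessibility does not report the amount of ARID1A or ARID1B, and the degree of silencing was not analysed here. Nothing in the labels says that the libraries of a group came from separate cultures, so the errors below cover the spread between these libraries, which may be technical.

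Collagens are triple-helical proteins. The fibrillar ones form the cables of connective tissue, the FACIT collagens decorate those cables, and type IV collagen forms the sheet of the basement membrane. Laminins are cross-shaped trimers of an alpha, a beta and a gamma chain that make a second sheet there, tied to collagen IV by nidogens and perlecan. Neuroblastoma arises from neural crest derivatives, cells that migrate through such matrix, and mesenchymal-type tumour cells are known for making more of it than adrenergic ones. In the Control libraries the sites nearest to the starts of 6 adrenergic markers had from 2.43 ± 0.393 CPM at TH to 43.9 ± 2.67 at HAND2 (n = 3), with GATA3, ISL1, DBH and MYCN in between. Those of 6 mesenchymal markers had from 0.649 ± 0.139 CPM at DCN, whose highest site had 20.3 CPM, to 41.2 ± 2.24 at TWIST1, with PDGFRA, PDGFRB, PRRX1 and LUM at 10 to 30.2. Those of the blood markers PTPRC and CD3E had 1.26 and 4.3 CPM, and those of 3 epithelial markers 0.509 (KRT8) to 6.62 CPM (EPCAM). The ranges of the adrenergic and the mesenchymal list overlapped. CPM is the usual count scaled to a common library size, here the reads in all sites after normalization by the trimmed mean of M-values (TMM).

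The letters of 5 named sites are shown first, since the values below are about these stretches of DNA. They are the central 200 bases of the 4 largest falls after combined silencing among sites of at least 1 CPM, 1 per gene, and of the 1 site that met the same naming rule by rising, all read from the forward strand of GRCh38. Capitals mark matches, on either strand, to the AP-1 motif TGANTCA, the TEAD motif GGAATG, the motif AGATAA of the GATA factors, the E-box CAGCTG, the HAND-type E-box CATCTG, the homeodomain motif TAATTA or the SP/KLF motif GGGCGG.
VCAN site, chr5:83332084-83332283: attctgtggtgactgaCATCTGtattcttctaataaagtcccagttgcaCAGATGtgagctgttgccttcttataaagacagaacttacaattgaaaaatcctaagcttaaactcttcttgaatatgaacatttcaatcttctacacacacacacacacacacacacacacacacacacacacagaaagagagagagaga
LAMA3 site, chr18:23772570-23772769: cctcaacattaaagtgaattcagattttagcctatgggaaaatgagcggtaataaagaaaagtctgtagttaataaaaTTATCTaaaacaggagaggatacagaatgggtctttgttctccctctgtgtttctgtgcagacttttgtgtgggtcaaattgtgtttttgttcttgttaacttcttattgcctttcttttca
FBN1 site, chr15:48592912-48593111: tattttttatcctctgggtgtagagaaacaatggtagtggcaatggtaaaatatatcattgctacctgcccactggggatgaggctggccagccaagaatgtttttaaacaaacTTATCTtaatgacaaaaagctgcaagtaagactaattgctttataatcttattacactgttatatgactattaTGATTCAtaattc
COL5A1 site, chr9:134662146-134662345: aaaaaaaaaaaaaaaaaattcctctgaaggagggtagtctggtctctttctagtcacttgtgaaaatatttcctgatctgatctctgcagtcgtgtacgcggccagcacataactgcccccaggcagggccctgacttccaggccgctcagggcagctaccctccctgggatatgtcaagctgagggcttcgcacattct
COL1A1 site, chr17:50200368-50200567: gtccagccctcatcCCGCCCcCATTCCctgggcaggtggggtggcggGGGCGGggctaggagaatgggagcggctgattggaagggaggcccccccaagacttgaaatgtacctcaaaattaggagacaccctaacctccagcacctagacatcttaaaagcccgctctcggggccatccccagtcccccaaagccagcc
The first 3 of these are rich in A and T, and the VCAN, LAMA3 and FBN1 windows held a HAND-type E-box pair, a GATA match, and a GATA with an AP-1 match. The COL5A1 window held none of the 7 motifs. The COL1A1 window, at 62.5% G and C, held 2 SP/KLF matches and 1 TEAD match. COL4A1 and COL4A2, which encode the major chains of collagen IV, are read in opposite directions from start sites separated by 126 bases on chromosome 13, and that stretch is shown because 1 accessible site serves both genes (RefSeq promoter, GRCh38.p14, forward strand).
COL4A1-COL4A2 promoter, chr13:110307158-110307283: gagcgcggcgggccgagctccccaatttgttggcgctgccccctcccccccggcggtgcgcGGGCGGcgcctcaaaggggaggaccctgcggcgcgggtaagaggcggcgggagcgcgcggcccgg

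Reads in sites ran from 16140029 to 44472230 per library, a ratio of 2.76, and member sites took 0.263% to 0.302% of them. Replicate 2 of Control and replicate 2 of shARID1A/B.2.3 stood apart from their groups. Their counts scattered against the other libraries of the group with a chi-square per degree of freedom of 1.752 to 2.503, where the remaining pairs in these groups had 1.089 and 1.093. The main counts are therefore also given without both libraries, an alternative chosen after the data were seen. Of the 1392 member sites, 1343 had enough reads to be tested.

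After combined silencing, the mean of both combinations against Control, 139 of the 1343 member sites had lost accessibility (closed) and 19 had gained it (opened), by edgeR's quasi-likelihood test at a Benjamini-Hochberg false discovery rate (FDR) under 0.01 over all 357029 sites tested. This is 10.3% closed and 1.41% opened, against 10.3% closed and 3.43% opened among all tested sites, so the closed share of the matrix genes equalled that of all sites and was no result about these genes. The median log2 change of the closed member sites was −0.91, and 64 of them fell by at least 1 on the log2 scale, while 1 site rose that much. Closed sites were spread over 41 of the 55 genes and opened ones over 16. Without the 2 libraries that stood apart, 126 member sites closed and 12 opened, beside 8.73% closed and 3.06% opened of all sites. Scaling factors taken from promoter-TSS sites alone (promoter scaling) lowered the median log2 change of all sites by 0.23, and 236 member sites then closed and 1 opened. The closed share of the called member sites was 99.6% in place of 88%, and the closed share of all tested sites was 15.9%.

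The closed sites were unevenly shared among the genes, which the plot of sites per gene shows. COL22A1 (17 of 75 tested sites), COL21A1 (14 of 64) and COL11A1 (10 of 92) held 41 of the 139. With NID1 (7 of 30), LAMB1 (7 of 14), COL19A1 (6 of 29) and FBN1 (5 of 14) they held 66. For COL11A1 this was 10.9%, near the 10.3% of all tested sites. At the other end, LAMA2, COL12A1 and FBN2, with 359 tested sites between them, had 3 closed sites. Of the 55 genes, 14 had no closed site, among them FN1, the gene of fibronectin, with 17 tested sites and FBN2 with 106. For FBN2, 4 sites were lower and 11 higher at an unadjusted p under 0.05, and DESeq2 closed none. For FN1 these counts were 3 lower and 1 higher, with none closed by DESeq2.

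**Figure D1:**
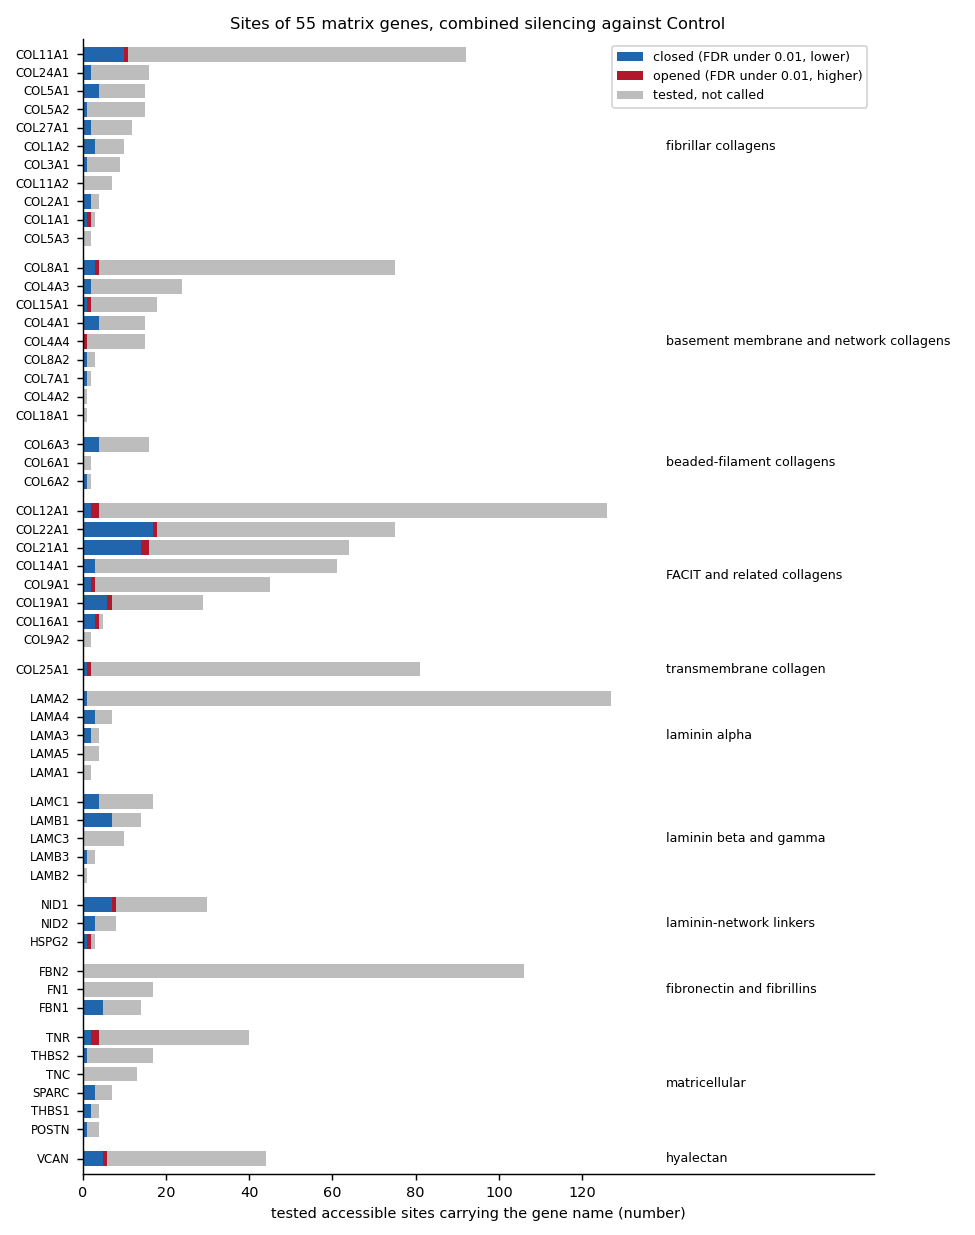
Tested accessible sites of each of the 55 matrix genes (bar length, number of sites), split into closed (blue), opened (red) and not called (grey) after combined silencing, FDR under 0.01. COL22A1 has 17 closed of 75 sites and LAMB1 7 of 14, whereas LAMA2 has 1 of 127 and FBN2 0 of 106.

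By role, the shares closed were 26.7% of 45 sites for the laminin beta and gamma chains and 26.8% of 41 sites for the nidogens and perlecan that link laminin to collagen IV. They were 25% of 20 sites for the type VI, beaded-filament collagens and 14.1% of 185 for the fibrillar collagens. The FACIT and related collagens had 11.5% of 407 sites closed, versican, the large chondroitin sulphate proteoglycan encoded by VCAN, 11.4% of 44, and the matricellular group (tenascins, thrombospondins, SPARC and POSTN) 10.6% of 85. Lower shares were found for basement membrane and network collagens (7.79% of 154), laminin alpha chains (4.17% of 144), fibronectin and the fibrillins (3.65% of 137) and COL25A1, a membrane-bound collagen (1.23% of 81). Most laminin alpha sites were those of LAMA2 (1 of 127 closed), beside LAMA3 (2 of 4), LAMA4 (3 of 7), LAMA1 (0 of 2) and LAMA5 (0 of 4). The fibronectin and fibrillin share joined FBN1 (5 of 14) with FN1 (0 of 17) and FBN2 (0 of 106). Sites of 1 gene share a locus, so these shares are descriptions of few genes, and no share was tested against another.

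Up to 10 CPM the share of closed sites rose with the read level, among members as among all sites. In sites under 1 CPM on average 3.26% of 705 member sites closed (3.77% of all sites), and at 5 to 10 CPM 39.7% of 58 did (36.9% of all). At 10 CPM or more 20% of 35 member sites closed (16.6% of all) and 17.1% opened (37.6% of all). Closed member sites had a median of 2.55 CPM and 1231 bases, against 0.942 CPM and 756 bases for all tested member sites. COL12A1 and LAMA2 had 26 and 11 sites of at least 2 CPM, and 2 and 1 closed sites in all. By distance, 19 of 85 member sites 1 to 10 kb from the start closed (22.4%, against 10.8% of all sites), as did 76 of 657 at 10 to 100 kb (11.6%, against 11.2%) and 42 of 557 beyond 100 kb (7.54%, against 9.63%). Introns held 88 of the closed sites and intergenic stretches 46. At the 139 closed member sites the central 200 bases held the homeodomain letters TAATTA in 12.2% (all tested sites 5.4%), the HAND-type E-box in 21.6% (16%), AGATAA in 18% (11.7%), TGANTCA in 10.8% (7.38%), GGAATG in 17.3% (11.5%), CAGCTG in 12.9% (12.2%) and GGGCGG in 3.6% (6.67%). Among all 36610 closed sites the first 3 of these shares were 9.86%, 23.7% and 17.4%. These are letter matches counted without a test.

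**Figure D2:**
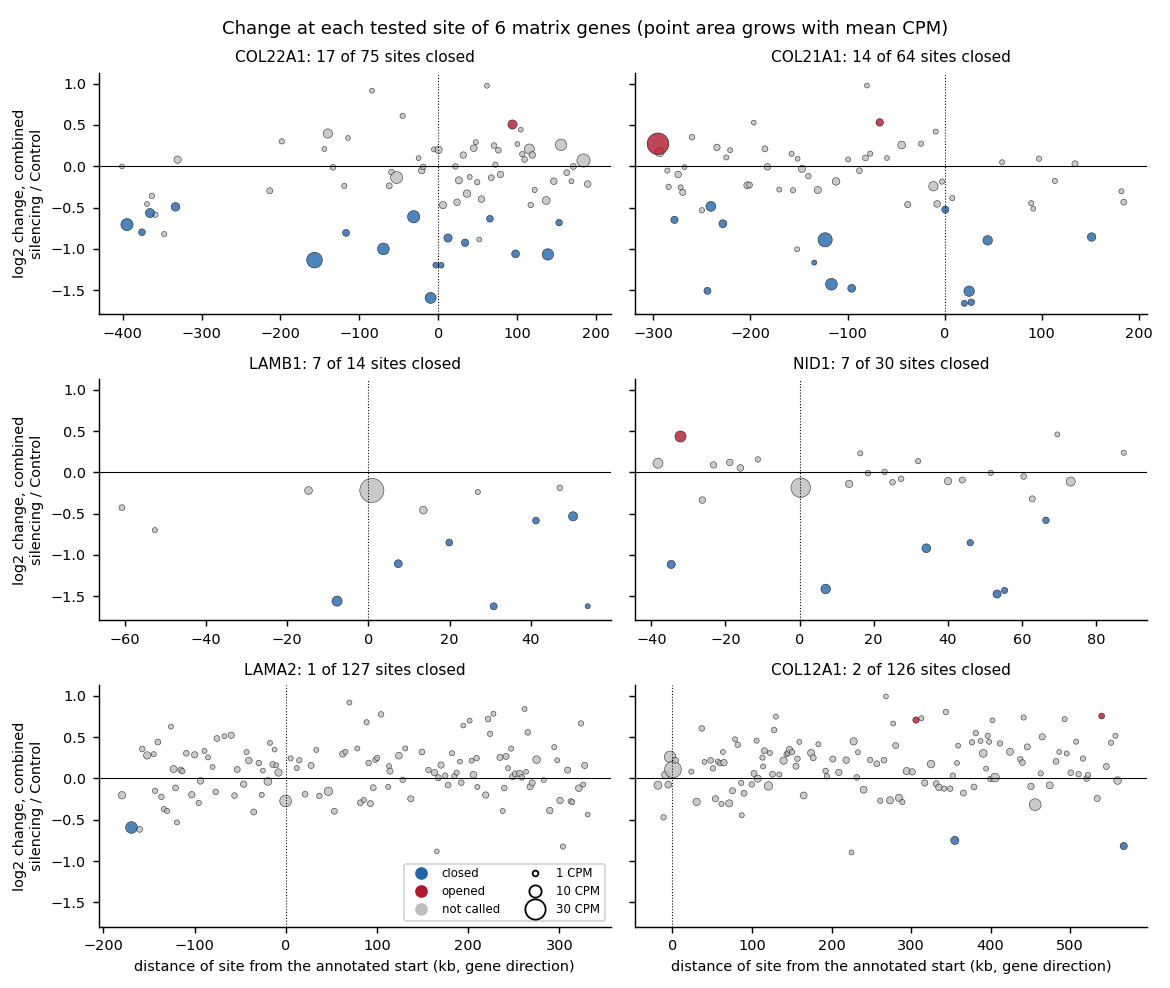
Log2 change after combined silencing (y axis) of each tested site of 6 matrix genes against its distance from the annotated start (x axis, kb, positive in the direction of transcription), with point area growing with mean CPM and closed sites in blue. Closed sites number 17 at COL22A1, 14 at COL21A1, 7 each at LAMB1 and NID1, 2 at COL12A1 and 1 at LAMA2, and the largest LAMB1 point, at the start, lies at −0.22.

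The basement membrane genes LAMB1 and NID1 had 7 closed sites each. LAMB1, which encodes the laminin beta-1 chain, had 7 of 14 sites closed. The largest fall with over 1 CPM lay in its intron 13 (chr7:107971743-107973299, 30838 bases from the start). Reads there were 4.43, 4.15 and 4.21 CPM in the Control libraries, 1.38, 0.999 and 1.01 with shARID1A/B.2.3, and 1.57, 1.47 and 2.04 with shARID1A/B.4.2. The 12 single-silenced libraries, at 1.31 to 2.96 CPM, lay below the lowest Control library too, and the combined log2 change was −1.62 (SE 0.14, FDR 9.22e-17). An intergenic site at −7710 bases from the start fell by 1.56 on the log2 scale (SE 0.11) and an intron 4 site by 1.11 (SE 0.13). The tall site of 43.1 CPM at the start itself, 856 bases into the gene, had a log2 change of −0.22 and was not called. NID1, whose product nidogen-1 bridges laminin and collagen IV, had 7 of 30 sites closed, led by intron 10 sites at −1.47 (chr1:236011421-236012369, SE 0.13) and −1.43 (chr1:236009326-236010435, SE 0.17) and an intron 1 site (chr1:236057219-236059037) at −1.41 (SE 0.11). Its paralogue NID2 had 3 of 8 closed, at −1.05 to −1.44.

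LAMA3, the alpha chain of epithelial laminin-332, had the second largest fall of all named sites, in intron 8 (chr18:23772218-23773121). Control libraries had 4.19, 3.41 and 3.65 CPM, shARID1A/B.2.3 libraries 0.821, 0.836 and 1.06, and shARID1A/B.4.2 libraries 1.21, 1.24 and 1.11. Libraries with a single gene silenced lay in between, at 1.3 to 2.54 CPM, with no overlap on either side, and the combined change was −1.86 on the log2 scale. LAMC1, the gamma chain that most laminins share, had 4 closed sites of 17, all in its long first intron and each with a smaller change (−0.42 to −0.61). The combinations differed here. With shARID1A/B.2.3, 5 LAMC1 sites closed and the summed counts changed by −0.22 on the log2 scale (FDR 0.000291). With shARID1A/B.4.2, 1 closed and 1 opened, and the sum changed by −0.01 (FDR 0.919). LAMA4, a chain of vessel and muscle laminins, had 3 of 7 closed, all 3 annotated to intron 2 of the transcript RP11-506B6.6, between −34773 and −27818 bases from the LAMA4 start. COL4A1 had 4 closed of 15 tested sites, all in its first 2 introns, with the largest fall in intron 2 (chr13:110237234-110238996, −1.43, SE 0.13). The site over the promoter shared with COL4A2, whose letters are given above, had 24.3 ± 1.63 CPM in Control (n = 3), 27.6 ± 2.61 with shARID1A/B.2.3 and 24.9 ± 2.01 with shARID1A/B.4.2, and was not called (log2 0.10, SE 0.08, FDR 0.448).

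Among the fibrillar collagens, COL5A1, whose chain regulates the width of collagen I fibrils, had the largest fall. At its intron 1 site (chr9:134661439-134663052, 20440 bases from the start) Control libraries had 12.1, 8.59 and 11.3 CPM. Those with shARID1A/B.2.3 had 2.56, 2.74 and 2.99 CPM and those with shARID1A/B.4.2 3.49, 3.04 and 3.71. The lowest Control library was the 1 that stood apart, yet it still exceeded all 12 single-silenced libraries (4.07 to 7.73 CPM), and the combined log2 change was −1.79 (SE 0.11, FDR 1.04e-24). COL1A2, 1 of the 2 chains of collagen I, fell at an intron 20 site (chr7:94409637-94411156) where Control libraries had 8.37, 9.78 and 8.98 CPM, shARID1A/B.2.3 libraries 3.91, 2.97 and 4.26, and shARID1A/B.4.2 libraries 2.15, 1.84 and 1.72. There the second combination was lower than the first, a log2 difference of 0.93 (SE 0.17, FDR 1.87e-05). The partner chain COL1A1 gave the only site that met the naming rule by rising, in intron 1 (chr17:50199496-50201439, 1175 bases from the start), with 12.5, 10.6 and 13.3 CPM in Control against 17.9, 14.4 and 18.2, and 16, 15.3 and 16.1, in the combinations. The rise was small (log2 0.42, SE 0.09, FDR 0.000232). It was not called with promoter scaling (0.19, FDR 0.0684), with offsets for GC content (0.23, FDR 0.0248) or with these and a replicate block (0.23, FDR 0.0173). Another COL1A1 site, at −5762 bases from the start, closed with a log2 change of −0.73. COL11A1, a cartilage-type collagen, had 10 of 92 sites closed and 1 opened, and COL24A1 2 of 16 closed. The named COL11A1 site, in intron 35 (chr1:102967566-102968197, log2 −1.57, SE 0.22), had 1.3, 1.85 and 1.92 CPM in Control and 0.506 to 0.624 in the combinations. At the COL24A1 intron 24 site (chr1:85952377-85952982), shARID1B.2 libraries had 3.46, 1.92 and 2.53 CPM, within reach of Control at 2.17, 2.59 and 2.53, while the other 5 silenced groups had means of 0.712 to 1.21 CPM.

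**Figure D3:**
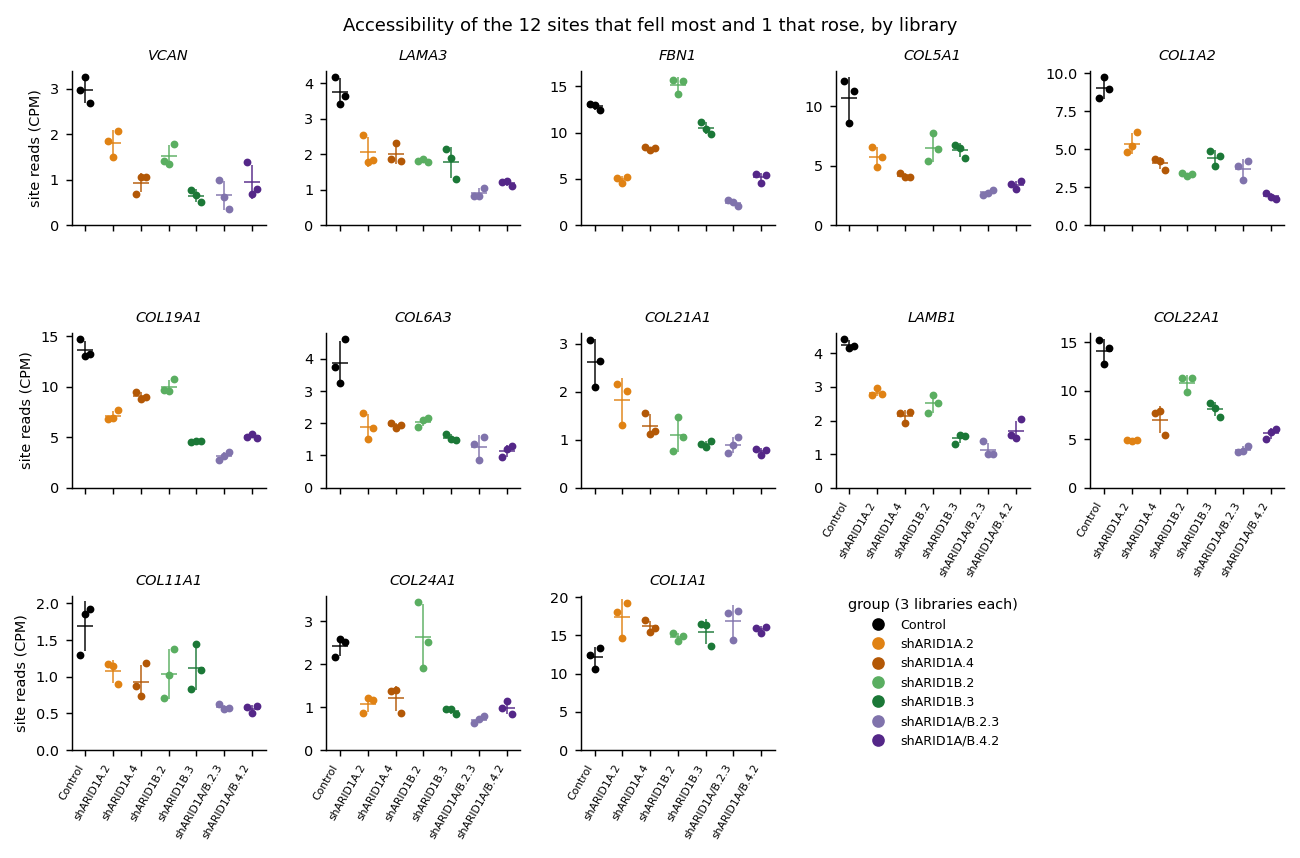
Reads (CPM, y axis from 0, a scale of its own in each panel) at the 12 named falls and the 1 named rise, in each library of the 7 groups (points), with the group mean and SD (n = 3). The 6 combination libraries lie below the 3 Control libraries in the first 12 panels and above them in the COL1A1 panel, as the naming rule required, and at the FBN1 site shARID1B.2 lies above Control.

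The FACIT and related collagens held 47 of the 139 closed sites. COL22A1, known from tissue junctions such as that of muscle and tendon, had 17 of 75 sites closed and 1 opened, from −394676 to 153298 bases from the annotated start. Its most reduced site, in intron 1 (chr8:138892282-138893362), had 15.2, 12.8 and 14.4 CPM in Control, 3.64, 3.74 and 4.35 with shARID1A/B.2.3 and 5.02, 5.75 and 6.08 with shARID1A/B.4.2. The single-silenced libraries ranged from 4.83 to 11.3 CPM, again below Control. COL21A1 had 14 of 64 sites closed and 2 opened, 4 of the closed ones falling by at least 1.51 on the log2 scale, and some lying inside the neighbouring gene DST. At the named one, in intron 1 (chr6:56227072-56227927, log2 −1.66, SE 0.19), Control had 3.08, 2.1 and 2.65 CPM and the combinations 0.69 to 1.06. COL19A1 had 6 of 29 closed. Its 2 largest falls, in introns 9 and 12, were −1.77 (SE 0.10) and −1.74 (SE 0.11), and at the first of them (chr6:69957835-69959655) Control had 13.7 ± 0.927 CPM, shARID1A/B.2.3 3.16 ± 0.402 and shARID1A/B.4.2 5.11 ± 0.203 (n = 3 each). COL16A1 had 3 closed of 5, and COL14A1 3 of 61. COL12A1, a widely made FACIT collagen with 126 sites, had 2 closed and 2 opened, and 4 lower against 16 higher sites at an unadjusted p under 0.05.

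Of the other glycoproteins, FBN1, the gene of the microfibril protein fibrillin-1, had 5 of 14 sites closed. Its intron 6 site (chr15:48592162-48593860, 52777 bases from the start) had 13.1, 13 and 12.4 CPM in Control and fell to 2.69, 2.56 and 2.07 with shARID1A/B.2.3 and 5.51, 4.56 and 5.43 with shARID1A/B.4.2. With ARID1A silenced it had 5.07, 4.55 and 5.21 (shARID1A.2) and 8.42, 8.18 and 8.33 CPM (shARID1A.4), below Control throughout. With ARID1B silenced it had 15.7, 14.2 and 15.6 (shARID1B.2) and 11.2, 10.4 and 9.91 CPM (shARID1B.3), so those groups lay on both sides of Control. VCAN had 5 of 44 sites closed and 1 opened. Its 2 most reduced sites lie in intron 7 of the neighbouring gene XRCC4, and the larger fall (chr5:83331786-83332580, −139491 bases from the VCAN start) went from 2.98, 3.25 and 2.69 CPM in Control to 0.985, 0.627 and 0.352, and 1.39, 0.69 and 0.788, in the combinations (log2 −1.88). The opened VCAN site, 1400 bases into the gene, rose by little (log2 0.28, SE 0.06). SPARC, a matricellular collagen-binding protein, had 3 of 7 sites closed. COL6A3, the largest chain of collagen VI, had 4 of 16 closed, led by an intergenic site at −27769 bases from the start (chr2:237441065-237442802, 3.87 ± 0.689 CPM in Control, 1.26 ± 0.369 and 1.15 ± 0.184 in the combinations).

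Summing the counts of all sites of a gene gave 1 value per gene, in which sites with more reads weigh more. After combined silencing 17 of the 55 gene sums were lower and 0 higher, 30.9% and 0%, while of all 26743 gene sums 20.9% were lower and 15.9% higher. At an unadjusted p under 0.05 the counts were 25 lower and 2 higher, and DESeq2 called 18 lower and 1 higher. Leaving out both libraries that stood apart gave 18 lower and 0 higher, and promoter scaling 32 lower and 0 higher. The changes were small beside those of single sites. The LAMB1 sum was 94.1 ± 0.911 CPM for Control, 62.4 ± 2.39 for shARID1A/B.2.3 and 66.6 ± 2.01 for shARID1A/B.4.2 (n = 3 each, log2 −0.55, SE 0.04, FDR 6.51e-11), with all silenced libraries below all Controls. COL22A1 went from 241 ± 3.4 to 186 ± 1.95 and 158 ± 1.88 CPM (log2 −0.49), and NID1 from 110 ± 3.28 to 81.5 ± 1.63 and 88.8 ± 1.16 (log2 −0.38). The largest fitted fall was that of LAMB3, another chain of laminin-332, with few reads (log2 −0.62, SE 0.13, 3.2 ± 0.515 CPM in Control).

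The other lower sums were those of COL4A1 (log2 −0.49), FBN1 and LAMA3 (both −0.45), COL21A1 (−0.43), COL6A3 (−0.42), COL1A2 and COL5A1 (both −0.41), COL19A1 (−0.39), SPARC (−0.38), COL5A2 (−0.31), COL11A1 (−0.29), COL2A1 (−0.27) and COL27A1 (−0.16). In 13 of the 17 genes all 6 combination libraries lay below all 3 Controls, the exceptions being COL5A1, COL5A2, COL11A1 and LAMA3. By combination, COL11A1 (log2 −0.06, FDR 0.581), COL5A2 (−0.20, FDR 0.0894), COL1A2 (−0.20, FDR 0.0445) and COL5A1 (−0.30, FDR 0.0147) were not called with shARID1A/B.2.3. LAMA3 (−0.28, FDR 0.051) and COL27A1 (−0.10, FDR 0.141) were not called with shARID1A/B.4.2. A direct test between the combinations called 3 member sums lower and 11 higher with shARID1A/B.2.3. The share of all gene sums in that test was not computed, so these counts cannot be read as particular to the matrix genes. Replicate 2 of shARID1A/B.2.3, which stood apart, is part of that test, and the counts without it are not given. The calls of COL5A2, COL11A1 and COL27A1 were kept in 11, 15 and 11 of 18 alternative fits, and that of COL2A1 in 17. COL5A2, COL11A1 and COL27A1 lost it when the fit held just the groups compared, and COL5A2 and COL11A1 also without Control replicate 2. The sums of VCAN (log2 0.00), COL12A1 (−0.01), FN1 (0.02), FBN2 (0.03) and LAMA2 (−0.05) were not called.

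**Figure D4:**
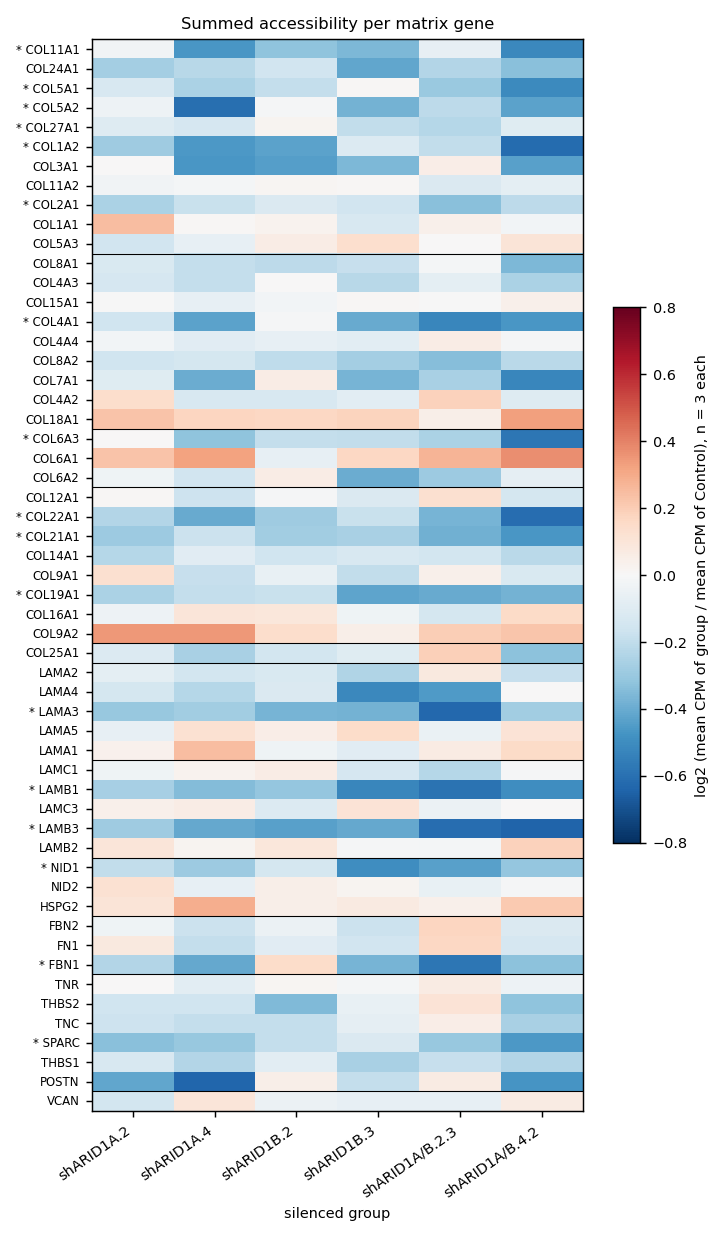
Log2 ratio of each silenced group's mean summed CPM to the Control mean (colour, n = 3 libraries per group) for the 55 matrix genes in rows, grouped by role between lines, with a star for an FDR under 0.01 after combined silencing. LAMB1, NID1, COL22A1, COL21A1 and COL19A1 are below Control in all 6 silenced groups, and FBN1 is above Control with shARID1B.2.

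Few matrix gene promoters were called. Of the 25 members with a tested promoter-TSS site, 2 promoters were lower and 2 higher after combined silencing, with a median log2 change of 0.12. Among all 12310 promoter-TSS sites 33.4% rose and 4.24% fell, with a median of 0.23. Promoter-TSS sites of all genes took 19.978% to 20.58% of the reads in Control libraries and 20.915% to 25.06% in the 18 silenced ones, and the part of this shift in the promoter values was not tested beyond the promoter scaling given here. The promoter of HSPG2, the gene of perlecan, rose (log2 0.46, SE 0.12, FDR 0.0023), from 6.54, 4.4 and 6.65 CPM in Control to 7.98, 6.92 and 6.46, and 9.86, 8.79 and 8.49. The first combination overlapped Control, and the rise was not called without Control replicate 2 (0.31, FDR 0.0788), with GC offsets (0.22, FDR 0.13) or by DESeq2 (0.46, FDR 0.0103). That of TNR, a tenascin of the nervous system, rose by 0.38 (SE 0.10, FDR 0.00396), from 5.71 to 7.12 CPM in Control to 7.68 to 9.18 in the combinations, and was not called without Control replicate 2 (0.33, FDR 0.0358), Control replicate 3 (0.37, FDR 0.0243) or shARID1A/B.4.2 replicate 3 (0.36, FDR 0.0131). Neither was called with promoter scaling, at 0.23 and 0.15, or without both libraries that stood apart, at 0.33 each (FDR 0.0436 and 0.0318).

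The COL25A1 promoter fell (log2 −0.36, SE 0.08, FDR 0.000186), but the combinations parted. Control had 34.5, 37.5 and 31.1 CPM, shARID1A/B.2.3 33.2, 38.3 and 31.5, and shARID1A/B.4.2 20.5, 21.6 and 20.2, a log2 difference between combinations of 0.73 (SE 0.09, FDR 2.3e-09). Without Control replicate 2 it was −0.27 and not called (FDR 0.022). The COL22A1 promoter-TSS site, which belongs to another start than the one used for distance (−31148 bases), fell in both combinations (log2 −0.61, SE 0.09, FDR 1.24e-07), from 13.3 ± 1.41 CPM to 7.85 ± 0.628 and 9.63 ± 0.203. Tall promoters such as those of LAMC1 (60.9 CPM on average, log2 0.03), FN1 (34.7, log2 0.19) and COL27A1 (21.7, log2 0.20) were not called. In the combined comparison FN1 was called higher without shARID1A/B.2.3 replicate 3 (0.26, FDR 0.00872). Without replicate 2 of that group COL27A1 was called higher (0.29, FDR 0.0049), as were COL6A2 (0.49) and COL9A2 (0.34). With promoter scaling 5 more promoters were called lower, those of LAMB3 (log2 −0.85), LAMA2 (−0.51), COL11A2 (−0.46), COL14A1 (−0.32) and LAMC1 (−0.20), the last with a turned sign. GC offsets also called COL11A2 (−0.47, FDR 0.000621) and LAMC1 (−0.22, FDR 0.0059) lower. RefSeq promoter sequences were matched for 43 of the 55 members, and 30 of them held GGGCGG, against 44.6% of all 27305 such promoters of the same length.

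**Figure D5:**
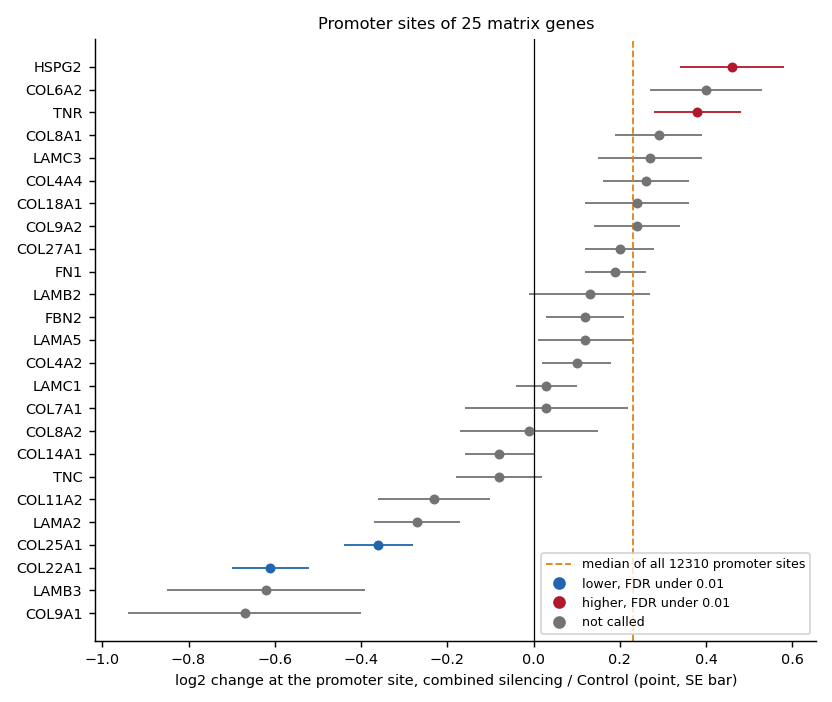
Log2 change after combined silencing (point) with its SE (bar) at the promoter-TSS site of 25 matrix genes, with the median of all promoter sites dashed. COL22A1 and COL25A1 are lower and HSPG2 and TNR higher at an FDR under 0.01. The points run from −0.67 at COL9A1 to 0.46 at HSPG2, around a median of 0.12.

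The combinations were then tested one at a time. Under shARID1A/B.2.3, 129 member sites closed (9.61%, all sites 10.4%) and 21 opened (1.56%, all sites 2.85%). With shARID1A/B.4.2, 116 closed (8.64%, all sites 7.37%) and 22 opened (1.64%, all sites 3.97%). The closed share of called member sites was 86% and 84.1%. It was 98.2% and 99.1% with promoter scaling, and 75.2% for shARID1A/B.2.3 when libraries were scaled by total counts. A direct test between the combinations called 52 member sites (3.87%, all sites 5.22%), 31 lower and 21 higher with shARID1A/B.2.3, 28 when replicate 2 of shARID1A/B.2.3 was left out and 30 without replicate 3 of shARID1A/B.4.2. Among them were the LAMA2 intergenic site that had closed on average (chr6:128712197-128714087, log2 −1.96, SE 0.12), a COL6A3 intron 43 site (1.48, SE 0.17) and the FBN1 intron 6 site (−1.06, SE 0.14). The LAMA2 site had an average change of −0.58 that did not hold for both combinations. LAMA2 had 1 closed and 1 opened site with shARID1A/B.2.3, and 0 closed and 1 opened with shARID1A/B.4.2.

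With ARID1A silenced alone, the mean of shARID1A.2 and shARID1A.4, 72 member sites closed (5.36%, all sites 5.37%) and 7 opened (0.521%, all sites 1.67%). With ARID1B silenced alone 60 closed (4.47%, all sites 3.53%) and 6 opened (0.447%, all sites 1.39%). The median log2 changes of the closed sites were −0.76 and −0.68. By shRNA, shARID1A.2 changed 55 member sites (4.1%, all sites 5.38%), shARID1A.4 81 (6.03%, all sites 6.45%, 53 without its replicate 2), shARID1B.2 35 (2.61%, all sites 3.18%, 23 without Control replicate 3) and shARID1B.3 97 (7.22%, all sites 8%). These comparisons share the Control libraries. LAMB1 had 3 sites closed by ARID1A silencing and 7 by ARID1B silencing, NID1 had 6 and 6, COL21A1 6 and 7, COL22A1 10 and 6, and FBN1 3 and 0. In gene sums, 12 of 55 members were lower and 1 higher with ARID1A silenced (all genes 14.4% and 7.28%), and 10 lower and 0 higher with ARID1B silenced (all genes 9.95% and 5.44%). For the latter, 24 were lower and 0 higher at an unadjusted p under 0.05, and DESeq2 called 11 lower and 0 higher. The 1 higher sum was COL9A2, a cartilage FACIT collagen (log2 0.34, FDR 0.00798). For ARID1A silencing, promoter scaling gave 25 lower and 0 higher sums, and leaving out Control replicate 2 left 8 sums called.

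A direct test of ARID1A against ARID1B silencing called 48 member sites (3.57%, all sites 4.74%), 32 lower with ARID1A silenced and 16 lower with ARID1B silenced. Each side is the mean of 2 shRNAs. The error covers the spread between libraries and leaves out that between shRNAs of 1 gene. The FBN1 intron 6 site differed by −0.98 (SE 0.08, FDR 2.89e-17), with a change from Control of −0.02 under ARID1B silencing, and an intergenic COL21A1 site (chr6:56363397-56365287) by −1.14 (SE 0.08), being at −1.07 and 0.07. Other COL21A1 sites differed the other way, as in intron 1 (chr6:56222044-56223109), at −0.34 with ARID1A and −0.91 with ARID1B silenced (difference 0.57, SE 0.09). COL22A1 sites in introns 1 and 2 differed by −0.67 (SE 0.09) and −0.85 (SE 0.12), each lower with ARID1A silenced.

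In the test of both combinations against the 4 single-shRNA groups, 85 member sites were lower with combined silencing (6.33%, all sites 6.85%) and 6 were higher (0.447%, all sites 0.969%). COL21A1 had 13 and COL22A1 12 of the 85. FBN1 had 5 of them and LAMC1 4, and LAMC1 had no closed site under either single silencing. The 12 named falls were chosen with the combinations below all Controls, and at 8 of them all 12 single-silenced libraries lay below as well. Departure from the sum of both single changes on the log2 scale was tested in either direction. Its median was 0.067 for member sites and 0.014 for all sites. At an unadjusted p under 0.05, 156 of the 1343 member sites departed. The share of all sites at that level was not computed, so this count cannot be read as particular to the matrix genes. At an FDR under 0.01 departure was called at 2 member sites (0.149%, all sites 0.516%). Leaving out 1 library at a time gave 1 to 3 such sites, and 15 of 21 such fits moved the count by over 1.5 times, among them those without Control replicate 1 or 3. The 2 sites called with all libraries were the FBN1 intron 6 site, 0.82 further down than the sum (SE 0.13, FDR 3.04e-05), and an intergenic COL11A1 site (chr1:103283565-103284901), 0.93 further down (SE 0.21, FDR 0.00848), which had −0.21 with ARID1A, −0.23 with ARID1B and −1.36 with both silenced.

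Among 48 other matrix and matrix-associated genes, 46 had tested sites. Of these 505 sites 96 closed (19%) and 12 opened (2.38%), and 23 of 46 gene sums were lower and 2 higher after combined silencing. Among 26 genes of collagen biosynthesis and matrix receptors, 23 had tested sites, with 72 of 712 closed (10.1%) and 17 opened (2.39%), and 9 of 23 sums lower and 1 higher. Both lists stand beside 10.3% closed and 3.43% opened of all sites, and beside 20.9% lower and 15.9% higher of all gene sums.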

How the data were processed

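The series holds 21 ATAC-seq libraries of SK-N-BE(2) cells. The deposited tables hold raw counts of reads per consensus site, which the authors made by aligning to GRCh38 and calling sites over merged replicates. Each site's gene name, annotation class and distance to the nearest TSS came from the deposited annotation. Neither aligner nor peak caller is given in the sources used here. The tables also hold normalized counts and the authors' own DESeq2 comparisons, which were not used.

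Groups were taken from the labels. All 7 groups entered 1 edgeR model without covariates, with TMM scaling, sites kept by filterByExpr at a minimum count of 10 (10871 of 367900 removed), and the quasi-likelihood test with Benjamini-Hochberg adjustment over all 357029 tested sites. Sites under 0.01 were called. SE is the size of the log2 change over the root of the F statistic. Counts of all sites with 1 gene name were summed and fitted likewise over 26743 genes. CPM carry counting error at a depth of 16140029 to 44472230 reads in sites, with a common coefficient of variation between replicates of 0.082 for sites and 0.064 for gene sums.

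Sites named were those of at least 1 CPM, called in both combinations and their mean, with no overlap between combination and Control libraries, 1 per gene: the 12 largest falls and the rises, of which 1 met the rule. Promoter sites, genes with a called sum and genes with at least 3 called sites were named too. Sites of other rank, such as those of LAMA2 and FN1, were chosen after their values were seen. The members and lists were chosen with earlier results of these data known. Results for 3 cell type markers are not reported here. Same-numbered libraries of Control and shARID1A/B.2.3 deviated together (correlations of 0.194, 0.506 and 0.207), so the numbers were taken to pair these groups. The 0.506 is that of replicate 2, the 2 libraries that stood apart. No other of the 21 pairs of groups had all 3 over 0.1. The main model holds no pairing, so the values given for shARID1A/B.2.3 and for combined silencing leave it out. Counts with a replicate block are given at the end. On simulated counts for the combined comparison over 357029 sites, 46, 35, 45 and 50 of 50 sites with log2 changes of −1.5, −1, 1 and 1.5 were recovered, with 1 false call. The changed sites were drawn from those over about 1 CPM, whereas 705 of the 1343 tested member sites were under 1 CPM. Simulated libraries shared the 1 common spread and none stood apart, so the recovery and the false call describe that setting. Alternatives covered scaling, filter, GC offsets, DESeq2, thresholds, samples and left-out libraries. The direct tests between ARID1A and ARID1B silencing and between the combinations were added after the data were seen. Sequences came from the GRCh38 reference and RefSeq. Versions were R 4.3.3, edgeR 4.0.16, limma 3.58.1 and DESeq2 1.42.0.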

Additional observations from a re-analysis of the deposited data

Results flagged for a closer look

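At 6 of the named sites a difference between groups passed the test of that difference at an FDR under 0.01. Between ARID1A and ARID1B silencing the log2 difference was −0.98 (FDR 2.89e-17) at the FBN1 site, −0.67 (FDR 4.1e-09) at the COL22A1 site and −0.39 (FDR 0.00412) at the COL5A1 site, each lower with ARID1A silenced. It was 0.64 (FDR 0.00832) at the COL21A1 site, which was lower with ARID1B silenced. Between shARID1A/B.2.3 and shARID1A/B.4.2 it was −1.06 (FDR 5.07e-09) at the FBN1 site, −0.70 (FDR 6.77e-05) at the COL19A1 site and −0.53 (FDR 0.00398) at the COL22A1 site, each lower with the first combination, and 0.93 (FDR 1.87e-05) at the COL1A2 site, lower with the second. At the FBN1 site the combined change lay 0.82 below the sum of the single changes (log2 −0.82, FDR 3.04e-05).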

How the results depend on the processing

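The LAMC1 promoter, at 0.03 and not called, turned to −0.20 with promoter scaling, −0.22 with GC offsets and −0.22 with the replicate block and GC offsets, and was called in each. No other called value changed sign, though 30 of the 475 promoter values did without a call, and 244 of 247 values at the named sites and 448 of 475 at promoters kept their side of the threshold. The counts that moved by over 1.5 times were these. An FDR under 0.05, a log2 change of at least 1 and sites within 100 kb recount the same fit under another limit. For the other settings the cause was not tested. Promoter scaling called 235 member sites with shARID1A/B.4.2, 141 with ARID1A silenced, 104 with ARID1B silenced, 135 with shARID1A.4 and 53 with shARID1B.2, and 32, 25 and 17 gene sums after combined, ARID1A and ARID1B silencing. An FDR under 0.05 gave 257 (shARID1A/B.2.3), 130 (ARID1A), 114 (ARID1B), 88 (shARID1A.2), 123 (shARID1A.4), 75 (shARID1B.2), 6 (departure from the sum), 76 (ARID1A against ARID1B), 107 (between combinations), and 21 and 18 gene sums with ARID1A and ARID1B silenced. A log2 change of at least 1 left 65 (combined), 74 and 58 (combinations), 17 and 17 (ARID1A, ARID1B), 15, 30, 9 and 36 (the single shRNAs in the order above), 9 (combined against single), 0 (departure), 7 (ARID1A against ARID1B), 12 (between combinations) and 0 gene sums in each comparison. Sites within 100 kb alone gave 98 (shARID1A/B.2.3), 35 (shARID1A.2) and 1 (departure). DESeq2 gave 22 for shARID1B.2 and 1 for departure, and total counts gave 1 for departure and 6 gene sums for ARID1B. For departure, no filter, GC offsets, and the replicate block with GC offsets each gave 4. Without both libraries that stood apart, 32 sites differed between combinations. The same fit gave 78 and 43 for shARID1A.4 and shARID1B.2, which moved by less than 1.5 times. Leaving out 1 library at a time gave 123 to 158 (combined), 115 to 144 and 95 to 117 (combinations), 56 to 75 (ARID1A), 45 to 63 (ARID1B), 39 to 47, 53 to 65, 23 to 33 and 65 to 80 (single shRNAs), 72 to 92 (combined against single), 1 to 3 (departure), 39 to 45 (ARID1A against ARID1B), 28 to 55 (between combinations), and 15 to 20, 8 to 14 and 7 to 10 gene sums.

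Libraries share replicate numbers across groups. Of 63 same-numbered pairs 14 correlated over 0.1 (−0.311 to 0.506), and 13 of 21 libraries correlated best with their own number. The numbers were taken to pair 2 groups only where all 3 pairs were over 0.1, as for Control against shARID1A/B.2.3. Other groups may still share a batch. With replicate 2 of Control and of shARID1A/B.2.3, that of shARID1A.2 correlated at 0.312 and 0.323, and that of shARID1B.2 at −0.298 and −0.311. With the replicate block, 156 member sites changed under shARID1A/B.2.3 in place of 150, 165 after combined silencing, and 19 gene sums did. The block alone moved no count by 1.5 times or more except departure (3 sites in place of 2) and changed no call at a named or promoter site. Under 1 CPM 3.26% of member sites closed; whether depth sets this share was not tested.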
